A study of Mus musculus with 9 samples.

Results

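This section describes 159 protein-coding genes whose mean level in mouse neutrophils moved one way beside one tumour line and the other way beside a second line. They were chosen by rule from group means in CPM, the reads of a gene scaled to library size, with trimmed mean of M values (TMM) factors. A gene had to average at least 10 CPM in neutrophils kept alone, and to be at least 1.5-fold higher with PyMT-N cells and at least 1.5-fold lower with PyMT-M cells, or the reverse. The rule was met in the first sense by 126 of the genes described and in the second by 33, out of 6926 protein-coding genes with at least 10 CPM alone and 54532 genes in the table. A further 12 genes that met the rule, 11 in the first sense and 1 in the second, are not described here. Since the group means chose the genes, every rise and fall of them below is a description with no test.

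Bulk RNA was sequenced from 9 libraries in 3 groups of 3, all of neutrophils taken from C57/B6 wild type bone marrow and cultured for 12 h at 0.5% serum. The first group was kept alone, the second with PyMT-N cells and the third with PyMT-M cells. PyMT is the usual abbreviation of the polyoma middle T antigen, an oncogene used to make mouse mammary tumours; the labels do not spell out N and M. The co-cultured neutrophils were recovered by fluorescence-activated sorting, and for those cultured alone no label mentions a sort, so sorting and co-culture cannot be told apart in a comparison with them. The labels call the libraries biological replicates and do not say how many mice gave the cells, so the spread between libraries may be partly technical.

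Neutrophils are short-lived phagocytes that carry ready-made granules and answer microbes, damaged cells and cytokines within hours through new transcription. Toll-like receptors and the interleukin-1 receptor family signal through IRAK kinases to NF-kB, a transcription factor held in the cytoplasm by inhibitory IkB proteins. NF-kB switches on chemokines, adhesion molecules, cyclooxygenase-2 and also its own inhibitors, so that the response carries its brake with it. Signals from a tumour cell can shift this programme up or down, and the genes below include receptors, signalling parts, products and brakes of it.

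The promoters of 4 genes are printed because each belongs to a member of the sensing and NF-kB group described next and holds letters that NF-kB is known to prefer. They run from 250 bases before to 50 bases after the transcription start in RefSeq's table for GRCm38.p6, are on the minus strand and are written 5′ to 3′, with the matched letters in capitals. Tnip1 (chr11:54962891-54963190), Tlr2 (chr3:83841559-83841858) and Bcl3 (chr7:19822706-19823005) hold GGGANTTCC on either strand, from position -57, -172 and 3 relative to the start, and in Tnip1 and Tlr2 the capitals are a match on each strand that overlap each other. Nfkbia (chr12:55492598-55492897) holds a pair of matches to GGGANTTTC, the first from position -113.
Nfkbia: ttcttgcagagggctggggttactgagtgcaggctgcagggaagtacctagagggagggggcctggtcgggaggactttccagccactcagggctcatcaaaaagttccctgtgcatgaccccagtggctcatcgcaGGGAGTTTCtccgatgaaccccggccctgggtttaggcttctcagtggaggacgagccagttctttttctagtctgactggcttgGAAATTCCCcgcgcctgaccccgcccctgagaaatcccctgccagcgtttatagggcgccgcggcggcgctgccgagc
Tnip1: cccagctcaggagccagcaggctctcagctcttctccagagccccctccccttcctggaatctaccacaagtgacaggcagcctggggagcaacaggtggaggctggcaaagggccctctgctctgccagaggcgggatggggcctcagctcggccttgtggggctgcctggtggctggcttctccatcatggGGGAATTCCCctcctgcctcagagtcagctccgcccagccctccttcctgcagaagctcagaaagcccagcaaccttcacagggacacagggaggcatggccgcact
Tlr2: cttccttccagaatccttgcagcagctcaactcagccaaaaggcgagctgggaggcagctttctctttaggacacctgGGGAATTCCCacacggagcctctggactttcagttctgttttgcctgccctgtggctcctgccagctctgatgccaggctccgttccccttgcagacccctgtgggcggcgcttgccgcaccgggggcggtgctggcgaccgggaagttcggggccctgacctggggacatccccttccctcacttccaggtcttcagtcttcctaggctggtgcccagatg
Bcl3: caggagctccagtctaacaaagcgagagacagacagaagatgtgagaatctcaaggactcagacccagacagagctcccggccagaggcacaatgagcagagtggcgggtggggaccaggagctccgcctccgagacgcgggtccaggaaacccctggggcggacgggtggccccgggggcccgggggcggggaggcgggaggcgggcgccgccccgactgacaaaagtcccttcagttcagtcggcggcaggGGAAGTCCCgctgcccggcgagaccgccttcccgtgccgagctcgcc
These letters were rare in the promoters as a whole. Windows of Ikbke, Nfkbie, Irak2, N4bp1 and Mefv, of the same sensing and NF-kB group, held neither form. Ralgds and Dglucy, outside that group, held GGGANTTCC. GGGANTTTC also stood outside it, in Dglucy and in overlapping windows of Syt8. Among the genes higher with PyMT-M it stood in Mms22l. RefSeq's table held promoters for 96 of the 126 genes higher with PyMT-N (135 windows of 300 bases, as some genes have several starts) and for 27 of the 33 higher with PyMT-M (34 windows). GGGANTTCC stood in 3.70% of the former, 0% of the latter, 2.51% of 7203 windows of genes with at least 10 CPM alone and 1.68% of all 32851 windows. GGGANTTTC stood in 2.96%, 2.94%, 1.00% and 1.11% in the same order. The AP-1 letters TGANTCA stood in 8.89%, 2.94%, 4.98% and 7.81%, and the TATA box letters TATAAA in 14.1%, 5.88%, 6.65% and 13.6%. The other letters scanned follow, with shares of the 135 and the 7203 windows. Higher in the 135 were GAS (TTCNNNGAA, 10.4% and 6.58%), C/EBP (TTNCNNAA, 40% and 31.4%), ISRE (GAAANNGAA, 8.89% and 7.12%) and TEAD (GGAATG, 11.85% and 10.79%). Lower were CRE (TGACGTCA, 0.741% and 3.165%), ETS (GGAAGT, 25.2% and 31.1%) and CCAAT (26.7% and 36.4%). Lower too were the GC box (GGGCGG, 54.1% and 65.3%), E-box (CACGTG, 10.4% and 10.8%) and hypoxia element (ACGTG, 25.9% and 26.8%). A match is a description of the sequence only.

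**Figure D1:**
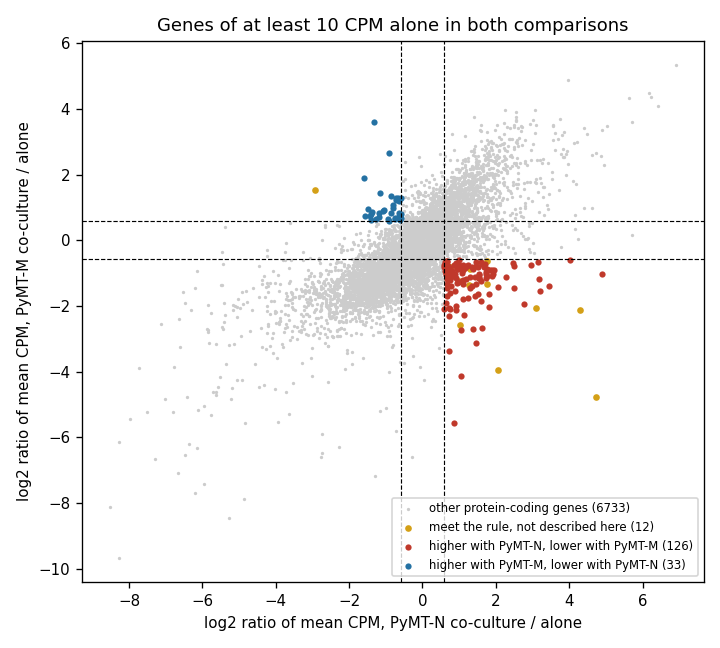
Each point is a protein-coding gene of at least 10 CPM alone, placed by the log2 ratio of group mean CPM of PyMT-N co-culture to alone (x axis) and of PyMT-M co-culture to alone (y axis), with dashed lines at 1.5-fold. Most genes lie along the diagonal, and the 126 and 33 coloured genes lie in the corners off it; 22 genes with a co-culture mean of 0 are not drawn.

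Opposite movement was uncommon next to movement in one direction, as the plot of both log2 ratios shows. Of the 6926 genes, 966 were at least 1.5-fold higher and 2232 at least 1.5-fold lower in both co-cultures. The rule was met by 1.98% of them in the first sense and 0.491% in the second, the 12 genes not described included. Against the nominal total of the CPM scale, the normalised CPM of the 126 genes summed to 1.12% alone, 2.65% with PyMT-N and 0.573% with PyMT-M. The sums for the 33 genes were 0.246%, 0.104% and 0.490%. They are not shares of a library, since the normalised total of a library falls as its TMM factor rises. These factors were 0.812 to 0.846 alone, 0.986 to 1.04 with PyMT-N and 1.16 to 1.22 with PyMT-M. Among the 126, the rise with PyMT-N reached 29.5-fold with a median of 2.12 and the fall with PyMT-M had a median of 2.06-fold. Among the 33, the rise with PyMT-M ran from 1.51 to 12.2-fold with a median of 1.78 and the fall with PyMT-N reached 3.05-fold with a median of 1.89. Both arms reached 2-fold in 41 of the 126 and 3 of the 33.

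Libraries overlapped for many of these genes. Every PyMT-M library lay below every alone library for 80 of the 126 (39.6% of the 6926 genes), and for 69 every PyMT-N library lay above as well (2.05%). For the 33 genes, every PyMT-N library lay below every alone library for 17 (34.3%), and for 14 every PyMT-M library lay above as well (0.520%). A gene with all 3 groups separate in this way is called ordered below. The rule used these contrasts, so nothing is read from those shares.

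The zero line of the comparison decides the falls. TMM sets the typical gene to no change, and transcripts typical of epithelial or mesenchymal cells were present in the co-culture libraries, so an alternative scaled each library to 23 genes of leukocytes in general. Those genes had a median log2 fold change of -1.68 with PyMT-N and -1.71 with PyMT-M under TMM, with an SD over the 23 genes of 0.86 and 0.40. Under that scaling all 126 and all 33 genes kept their rise, but the fall turned into a rise for 105 of the 126 and 30 of the 33. The median arm of the 126 genes with PyMT-M went from -1.05 to 0.66 on the log2 scale, and that of the 33 genes with PyMT-N from -0.92 to 0.54. Scaled to library totals, every fall kept its sign, the medians were -0.54 and -0.62, and 58 of the 126 and 17 of the 33 falls stayed past 1.5-fold. Words such as "lower" and "below alone" therefore hold for group means under TMM and library totals. The order of the co-cultures, which the rule itself fixed, held for every gene under each scaling tried. With group medians under TMM, 5 falls of the 126 genes and 3 of the 33 turned into rises, and 1 rise of the 126 into a fall. By medians 94 of the 126 and 19 of the 33 met the rule. Fewer neutrophils in a library and less of a transcript per neutrophil cannot be told apart in these bulk samples.

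**Figure D2:**
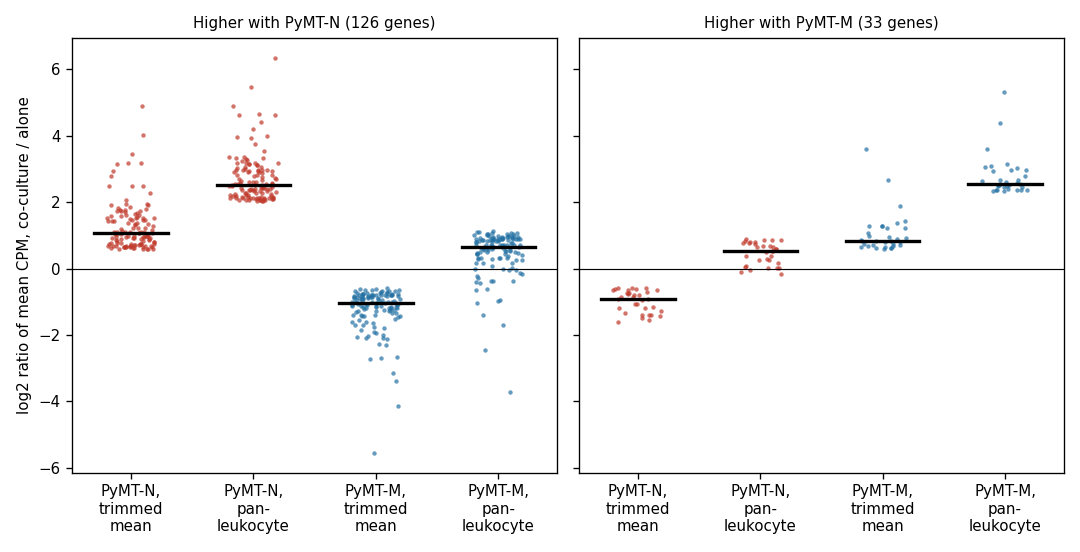
Each point is a gene, with the log2 ratio of its mean CPM in a co-culture to alone on the y axis, for the 126 genes (left) and the 33 genes (right), under trimmed-mean and pan-leukocyte scaling; bars are medians. The falling arm moves from -1.05 to 0.66 (left, PyMT-M) and from -0.92 to 0.54 (right, PyMT-N) while the rising arm stays above 0.

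Marker genes of other cells moved with the groups. The neutrophil markers S100a8, S100a9, Csf3r and Cxcr2 were present in all 9 libraries, and 19 neutrophil markers summed to between 38893 and 53422 CPM alone, 21710 and 26956 with PyMT-N, and 19123 and 23627 with PyMT-M. Epithelial markers, 20 in all, summed to between 47.5 and 117 CPM alone, 2441 and 3258 with PyMT-N, and 119 and 185 with PyMT-M, with Epcam at 0 in every alone library and 190 ± 38.4 CPM (SD, n = 3) with PyMT-N. Mesenchymal markers without Vim, 21 in all, summed to between 397 and 403 CPM alone, 376 and 427 with PyMT-N, and 1192 and 1290 with PyMT-M, with Col3a1 at 0 in every PyMT-N library and 233 ± 46.1 CPM (SD, n = 3) with PyMT-M. Monocyte and macrophage markers without Cd14, 17 in all, were highest alone at 27236 to 31524 CPM, against 3772 to 5137 with PyMT-N and 7053 to 9593 with PyMT-M, most of it Lyz2, which neutrophils also express. B cell markers and those of eosinophils, basophils and mast cells were highest alone too, at 577 to 1346 and 411 to 528 CPM, against at most 129 and 27.98 CPM in any co-culture library; among T and NK cell markers Cd3e was at 0 in all 9. The part of any of these cells in the results was not tested.

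One library, the third kept alone, stood apart. It had the lowest total, 1641049 counts against 2698984 to 4524563 in the others, and 1.75% of its counts were mitochondrial mRNA against at most 0.769% elsewhere. Without it the rule was met in the first sense by 120 genes, 76 of them among the 126, and in the second by 32 genes, 16 of them among the 33. Among the alone libraries it was the highest for 50 of the 126 genes (39.2% of the 6926) and the lowest for 58 (48.0%). Its level was at least 2 times the mean of the other alone libraries for 24 of the 126 genes and at most 0.5 times that mean for 27. Of those 24 only 4 met the rule without it, against 16 of the 27 and 56 of the other 75. Of the 50 genes of the 126 that left the rule, 37 had an arm under 1.5-fold, 5 had the fall turned into a rise, and 8 kept both folds but averaged under 10 CPM in the other alone libraries. Of the 17 that left among the 33, these numbers were 13, 3 and 1. Genes that were ordered in every library and met the rule without it numbered 53 of the 126 and 10 of the 33.

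**Figure D3:**
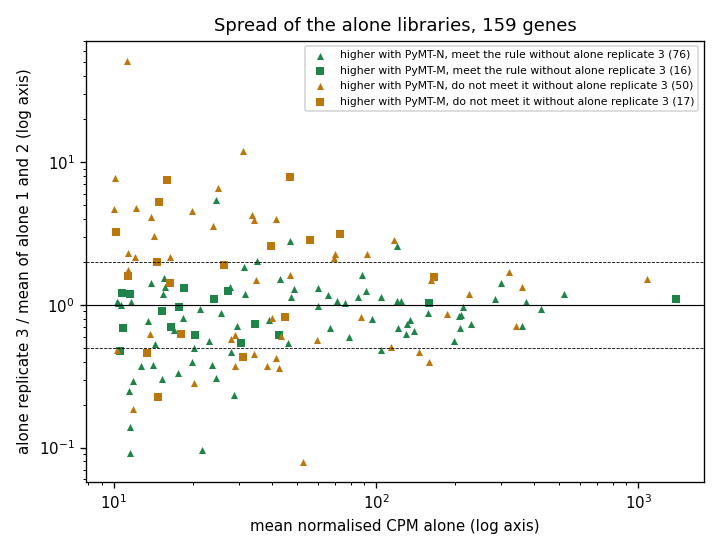
Each point is 1 of the 159 genes, with its mean normalised CPM alone on the x axis (log) and the ratio of alone replicate 3 to the mean of alone replicates 1 and 2 on the y axis (log); the dashed lines mark ratios of 2 and 0.5. Genes that do not meet the rule without that library are in orange: 27 of the 31 at or above the upper line, 14 of the 31 at or below the lower line and 26 of the 97 between.

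Sensing of microbes and NF-kB signalling formed a group of 12 genes, all higher with PyMT-N, as were 126 of all 159 genes. This group and those below were put together by hand after the values were seen. Their rises ran from 1.59 to 16.2-fold and their falls with PyMT-M from 1.53 to 3.60-fold. In this group 7 genes were ordered and 7 met the rule without alone replicate 3. At the receptors, Tlr2, which recognises bacterial lipoproteins, measured 279, 271 and 302 CPM alone, 565, 347 and 474 CPM with PyMT-N and 144, 153 and 112 CPM with PyMT-M. The 3 groups did not overlap for Tlr2. Tlr4, the receptor for bacterial lipopolysaccharide, measured 109, 73.6 and 54.3 CPM alone, 296, 232 and 252 CPM with PyMT-N and 52.5, 39.5 and 28.5 CPM with PyMT-M. It was likewise ordered without overlap, with a log2 fold change of 1.70 ± 0.26 (SE) with PyMT-N and -0.99 ± 0.27 with PyMT-M. Cd14, which hands lipopolysaccharide to Tlr4, measured 58.8, 71.4 and 148 CPM alone, 1554, 1262 and 1675 CPM with PyMT-N and 63.6, 64.7 and 53.8 CPM with PyMT-M. Its PyMT-N libraries were far above all others, and its PyMT-M libraries overlapped alone replicate 1. Without alone replicate 3 its fall was 1.07-fold, so it did not meet the rule. Cd14 is also a monocyte marker.

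Downstream of these receptors, Irak2, a kinase of the receptor complex, measured 131, 114 and 129.7 CPM alone, 336, 249 and 289 CPM with PyMT-N and 61.5, 82.5 and 71.6 CPM with PyMT-M, again without overlap. Ikbke, a kinase related to the IkB kinases, measured 22.3, 19.4 and 83 CPM alone, 427, 324 and 382 CPM with PyMT-N and 16.6, 17.2 and 21 CPM with PyMT-M. The third PyMT-M library lay between the lower pair of alone libraries, and the other PyMT-M libraries lay just below that pair. Without alone replicate 3 the fall was 1.14-fold and the gene left the rule. Map3k8, a kinase that links these receptors to ERK signalling, and Mefv, which encodes the inflammasome sensor pyrin, were ordered in every library. Without alone replicate 3 the rise of Map3k8 was 1.37-fold, so it left the rule, whereas Mefv stayed in it. Mefv measured 71.7, 85.6 and 204 CPM alone, 473, 243 and 369 CPM with PyMT-N and 31.6, 31.1 and 37.8 CPM with PyMT-M, with the highest alone value in replicate 3.

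The brakes of NF-kB were in the same group. Nfkbia, which encodes IkB alpha and whose promoter is printed above, measured 274, 247 and 444 CPM alone, 879, 781 and 838 CPM with PyMT-N and 152, 258 and 122 CPM with PyMT-M. The PyMT-N libraries were the highest 3, and one PyMT-M library lay within the alone range. Nfkbie, which encodes a second IkB protein, measured 78.4, 66.5 and 205 CPM alone, 287, 200.3 and 249 CPM with PyMT-N and 52, 60.5 and 32.7 CPM with PyMT-M, and with alone replicate 3 in place its alone and PyMT-N libraries overlapped. Neither Nfkbia nor Nfkbie met the rule without that library, as their falls of 1.46 and 1.49-fold were then just under the threshold. Tnip1, a partner of the deubiquitinase A20 that restrains the pathway, measured 59.7, 87.4 and 118 CPM alone, 181, 97.2 and 159 CPM with PyMT-N and 27.1, 55.5 and 36.7 CPM with PyMT-M, with an overlap between alone replicate 3 and the second PyMT-N library. Bcl3, an IkB-like protein that acts in the nucleus, measured 41.9, 31.8 and 55.8 CPM alone, 90.4, 80.7 and 83.3 CPM with PyMT-N and 19.3, 29.6 and 23.7 CPM with PyMT-M, and N4bp1, another restraint on NF-kB, measured 235, 231 and 159 CPM alone, 500.0, 355 and 467 CPM with PyMT-N and 115, 136 and 103 CPM with PyMT-M. Bcl3 and N4bp1 were ordered in every library.

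**Figure D4:**
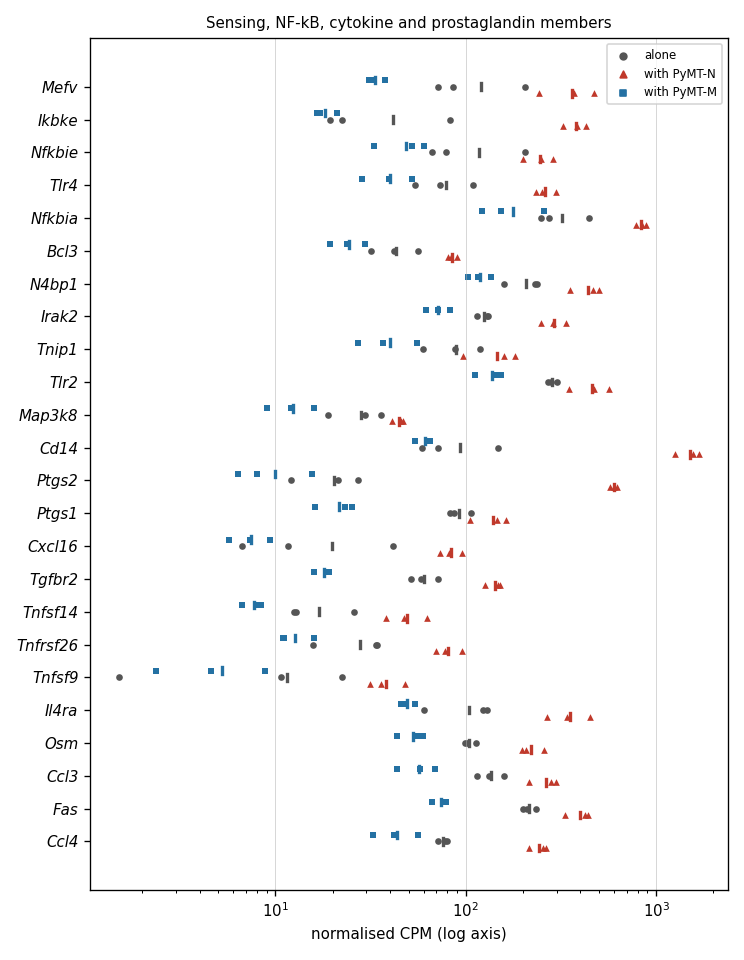
Normalised CPM on a log x axis in each of the 9 libraries (points, 3 per group) and group means (bars) for the 24 genes of sensing and NF-kB signalling, prostaglandin synthesis, and cytokines and their receptors. The PyMT-N mean lies to the right of the alone mean in every row, and Ptgs2 and Cd14 show the widest gap to alone.

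Prostaglandin synthesis gave a pair of genes. Ptgs2, the inducible cyclooxygenase-2, measured 21.4, 27.3 and 12.1 CPM alone, 624, 570.2 and 599 CPM with PyMT-N and 7.95, 15.7 and 6.39 CPM with PyMT-M. This was the largest rise among the 126 genes at 29.5-fold, a log2 fold change of 4.80 ± 0.29 (SE), while the alone and PyMT-M libraries overlapped. Ptgs1, the constitutive cyclooxygenase-1, measured 82.4, 86.7 and 106 CPM alone, 163, 106 and 145 CPM with PyMT-N and 23.2, 16.2 and 25.3 CPM with PyMT-M. Here the fall was the clear arm, 4.26-fold with no overlap, and the rise of 1.504-fold stood at the threshold with the second PyMT-N library level with alone replicate 3.

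Cytokines, chemokines, members of the tumour necrosis factor family and their receptors came to 10 genes, with rises of 1.86 to 4.20-fold and falls of 1.74 to 3.35-fold. Of these, 7 were ordered in every library and 9 met the rule without alone replicate 3. Ccl3 and Ccl4, chemokines that draw in monocytes and T cells and whose genes lie 13229 bases apart on chromosome 11, behaved alike. Ccl3 measured 133, 158 and 115 CPM alone, 281, 215 and 299 CPM with PyMT-N and 69, 57.3 and 43.4 CPM with PyMT-M. Ccl4 measured 71.3, 79.2 and 77.7 CPM alone, 263, 216 and 253 CPM with PyMT-N and 56.3, 42 and 32.5 CPM with PyMT-M. Neither gene overlapped between groups. Cxcl16, the ligand of Cxcr6, measured 6.68, 11.6 and 41.5 CPM alone, 73.5, 81.5 and 95.8 CPM with PyMT-N and 7.31, 5.73 and 9.32 CPM with PyMT-M, and its PyMT-M libraries overlapped the lower alone library. It was the gene of this group that did not meet the rule without alone replicate 3, with a fall of 1.22-fold.

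Osm, oncostatin M, a cytokine of the interleukin-6 family, measured 101, 98.6 and 113 CPM alone, 258, 197 and 208 CPM with PyMT-N and 59.3, 55.7 and 43.4 CPM with PyMT-M. Il4ra, the receptor chain shared by interleukin-4 and interleukin-13, measured 123, 129 and 60.3 CPM alone, 452, 266 and 341 CPM with PyMT-N and 47.9, 45.6 and 53.8 CPM with PyMT-M. Both were ordered in every library, Il4ra with its lowest alone value in replicate 3. The ligand genes Tnfsf14 (LIGHT) and Tnfsf9 (the ligand of 4-1BB) lie 81735 bases apart on chromosome 17. Tnfsf14 measured 12.5, 25.8 and 12.8 CPM alone, 62.6, 47.1 and 38.3 CPM with PyMT-N and 7.95, 8.4 and 6.65 CPM with PyMT-M, and Tnfsf9 measured 10.7, 22.4 and 1.51 CPM alone, 47.6, 35.8 and 31.4 CPM with PyMT-N and 2.36, 4.58 and 8.78 CPM with PyMT-M. Tnfsf14 was ordered, whereas the alone libraries of Tnfsf9 spanned its PyMT-M values. The death receptor Fas measured 233, 199.5 and 209.7 CPM alone, 425, 331 and 438 CPM with PyMT-N and 79.1, 76.5 and 66.8 CPM with PyMT-M, with no overlap, and Tnfrsf26 was the remaining gene of the family.

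Tgfbr2, which binds TGF-beta, measured 51.2, 57.9 and 71.7 CPM alone, 126, 151 and 148 CPM with PyMT-N and 15.9, 19.1 and 18.9 CPM with PyMT-M, a rise of 2.35-fold with PyMT-N and a fall of 3.35-fold with PyMT-M. A pair of transcriptional brakes on the same pathway moved alongside. Skil, which encodes SnoN, a repressor of SMAD proteins, measured 108, 99 and 82.2 CPM alone, 224, 225 and 207 CPM with PyMT-N and 50.1, 40.5 and 38.1 CPM with PyMT-M. Tgif1, a corepressor that binds SMAD proteins, measured 131, 139.7 and 92.8 CPM alone, 264, 268 and 320.3 CPM with PyMT-N and 71.6, 84.7 and 61.5 CPM with PyMT-M. All 3 genes were ordered in every library and met the rule without alone replicate 3.

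Activating and inhibitory receptors of myeloid cells gave 6 genes higher with PyMT-N, all of which met the rule without alone replicate 3. Clec5a, a lectin receptor that signals through DAP12, measured 92.7, 57.2 and 51.3 CPM alone, 315, 214 and 239.8 CPM with PyMT-N and 29, 32.8 and 37.8 CPM with PyMT-M, a rise of 3.82-fold. Trem1, which amplifies Toll-like receptor responses in neutrophils, measured 43.7, 47.1 and 51.3 CPM alone, 97.3, 59.5 and 78.6 CPM with PyMT-N and 26.2, 19.7 and 16.5 CPM with PyMT-M. The inhibitory receptor Siglece had a PyMT-N mean 3.83 times that of alone. Tarm1, Cd300lf and Lilra6 were the others, and counts of Lilra6 and Cd300lf, which have close relatives in the genome, may be split between copies.

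Adhesion, co-stimulation and other surface proteins came to 13 genes, of which 8 were ordered and 8 met the rule without alone replicate 3. Icam1, the ligand of the beta2 integrins, measured 11.6, 12 and 25.6 CPM alone, 78.4, 41.9 and 64.1 CPM with PyMT-N and 9.67, 10.5 and 5.86 CPM with PyMT-M. It was ordered in every library yet did not meet the rule without alone replicate 3, as the remaining alone libraries were close to PyMT-M. Cd80, a co-stimulatory ligand of CD28, measured 24.5, 14.6 and 15.8 CPM alone, 40.8, 40.2 and 53.2 CPM with PyMT-N and 7.74, 4.01 and 8.52 CPM with PyMT-M, ordered and in the rule either way. The activation marker Cd69 measured 10.2, 6.73 and 25.6 CPM alone, 36.5, 35.5 and 46.3 CPM with PyMT-N and 7.74, 5.34 and 3.73 CPM with PyMT-M, with one PyMT-M library above the second alone library. Cass4, a scaffold protein of focal adhesions and the gene with the highest rank, measured 4.9, 4.11 and 21.1 CPM alone, 78.9, 48.8 and 79.4 CPM with PyMT-N and 3.65, 2.29 and 1.86 CPM with PyMT-M. Its groups did not overlap, but alone replicate 3 was over 4 times each of the others. Without it Cass4 kept a rise of 15.4-fold and a fall of 1.72-fold, and left the rule by its alone level of 4.61 CPM.

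Tmem176b, a membrane protein of myeloid cells, measured 17.8, 31.4 and 45.3 CPM alone, 72, 97 and 88.7 CPM with PyMT-N and 2.36, 4.96 and 3.46 CPM with PyMT-M. It was ordered, and its fall was 8.76-fold. Tmem176b, Fam20c, Slco3a1 and Cd81 were the 4 genes of the 126 that met the whole rule under pan-leukocyte scaling too. Ly6i, a small surface protein with near-identical relatives to which reads could be lost, measured 8.47, 4.86 and 79.9 CPM alone, 345, 339.6 and 340.5 CPM with PyMT-N and 9.03, 17.6 and 9.05 CPM with PyMT-M. Its PyMT-N libraries were uniformly high, and its fall rested on alone replicate 3, without which the log2 fold change with PyMT-M was 0.90. The tetraspanin Cd53 measured 494, 373 and 407 CPM alone, 766, 630.0 and 644 CPM with PyMT-N and 189.6, 181 and 138 CPM with PyMT-M, and App, the amyloid precursor protein, measured 408, 325 and 383 CPM alone, 807, 755 and 772 CPM with PyMT-N and 159.5, 186 and 126 CPM with PyMT-M; both were ordered. Thbd, thrombomodulin, had a PyMT-N mean 8.86 times that of alone. Sema4a, Gpr146, Gabbr1 and the tetraspanin Cd81 completed the group.

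Among proteases, lysosomal and granule genes there were 9, of which 7 were ordered and 4 met the rule without alone replicate 3. Mmp12, macrophage elastase, measured 12.5, 7.85 and 10.6 CPM alone, 95.9, 84.3 and 102 CPM with PyMT-N and 3.87, 3.24 and 3.46 CPM with PyMT-M. No library overlapped, and the log2 fold changes were 3.21 ± 0.29 (SE) with PyMT-N and -1.52 ± 0.41 with PyMT-M. Srgn, the proteoglycan that packs granule proteins, measured 445, 355 and 287 CPM alone, 1318, 967 and 1021 CPM with PyMT-N and 213, 230.2 and 245 CPM with PyMT-M. Ctsb, the lysosomal protease cathepsin B, measured 884, 964 and 1409.7 CPM alone, 1873, 1442 and 1687 CPM with PyMT-N and 697, 684 and 507 CPM with PyMT-M, with alone replicate 3 close below the second PyMT-N library. Srgn met the rule without alone replicate 3 and Ctsb, with a fall of 1.46-fold, did not. Naaa, Prss16, Igf2r (the receptor that sorts enzymes to lysosomes), Mreg, C9orf72 and a predicted gene model were the others.

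Transcription factors and chromatin genes higher with PyMT-N numbered 11, of which 6 were ordered and 6 met the rule without alone replicate 3. Tfec, a relative of the lysosomal regulator Tfeb, measured 11.1, 13.1 and 17.3 CPM alone, 59.4, 38.6 and 47.6 CPM with PyMT-N and 7.09, 4.58 and 1.6 CPM with PyMT-M, ordered and in the rule without alone replicate 3. Maff, a small MAF protein, measured 0.891, 0.374 and 32.4 CPM alone, 35.6, 28.6 and 31.2 CPM with PyMT-N and 2.79, 4.96 and 3.19 CPM with PyMT-M. Its alone value came almost wholly from replicate 3, so that without that library the log2 fold change with PyMT-M was 2.55 and the gene moved up in both co-cultures. Foxo1 was covered by 60 counts alone, 296 with PyMT-N and 9 with PyMT-M, and without alone replicate 3 both arms stayed past 1.5-fold while its alone level, 5.52 CPM, was under the minimum. Xbp1, a factor of the unfolded protein response, measured 227, 237 and 129.7 CPM alone, 398, 358 and 376 CPM with PyMT-N and 110.1, 93 and 121 CPM with PyMT-M, ordered. Nfil3, Arid5b, Cdyl, Mllt6, Scmh1, Resf1 and Aff1 were the remainder.

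Metabolic and stress genes higher with PyMT-N numbered 8, of which 4 were ordered and 6 met the rule without alone replicate 3. Pfkfb3, which raises glycolysis by making fructose 2,6-bisphosphate, measured 64.6, 74.7 and 73.9 CPM alone, 125, 132 and 115 CPM with PyMT-N and 39.3, 31.1 and 41.3 CPM with PyMT-M. Txnip, an inhibitor of glucose uptake and of thioredoxin, measured 494, 484 and 582 CPM alone, 1730.1, 1554 and 1503 CPM with PyMT-N and 286, 331 and 334 CPM with PyMT-M. Both were ordered and in the rule either way. Arrdc4, an arrestin-like relative of Txnip, measured 47.2, 29.9 and 9.05 CPM alone, 173, 139 and 171 CPM with PyMT-N and 12.9, 11.5 and 7.45 CPM with PyMT-M, a rise of 5.6-fold, with alone replicate 3 inside the PyMT-M range. Ankrd37, a gene known to answer hypoxia, measured 16, 5.23 and 10.6 CPM alone, 33, 25.6 and 22.8 CPM with PyMT-N and 5.59, 4.39 and 2.13 CPM with PyMT-M, and one alone library overlapped PyMT-M. Mthfsl, Dglucy, Ero1l and Chac1 made up the group. Bnip3, a mitophagy receptor also known to answer hypoxia, counted here with cell death, measured 64.6, 32.5 and 18.1 CPM alone, 65.4, 61.4 and 56.4 CPM with PyMT-N and 20.6, 20.6 and 25 CPM with PyMT-M, overlapped between groups and left the rule without alone replicate 3, when its rise was 1.26-fold.

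Signalling enzymes and survival genes followed. Dusp5, a phosphatase that switches off ERK in the nucleus, measured 63.7, 57.5 and 59.6 CPM alone, 290.5, 361 and 356 CPM with PyMT-N and 38.9, 34.9 and 37.3 CPM with PyMT-M, a log2 rise of 2.48 ± 0.19 (SE) without overlap in either arm. Nek6, Sgk3, Ptpn22, Cdk16, Cdk18 and Cdc42bpg were the other kinases and phosphatases. Counting Dusp5, 1 of these 7 genes was ordered and 3 met the rule without alone replicate 3. Cflar, which encodes the caspase-8 inhibitor FLIP, measured 154, 176 and 145 CPM alone, 339, 275 and 327 CPM with PyMT-N and 103, 107 and 106 CPM with PyMT-M, ordered, with its fall at the threshold. Pmaip1 (Noxa), Ppp1r13b and Nuak2 were also in the cell death group, Nuak2 176442 bases from Cdk18 on chromosome 1. Of the 5 genes of that group, 2 were ordered and 3 met the rule without alone replicate 3.

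Lipid genes described here numbered 3, and none of them met the rule without alone replicate 3, Osbpl3 and Sgms2 by a fold and Mboat1 by its level. Mboat1, a lysophospholipid acyltransferase, measured 1.78, 4.48 and 24.1 CPM alone, 18.9, 31.7 and 43.7 CPM with PyMT-N and 3.01, 0.954 and 0.799 CPM with PyMT-M, with alone replicate 3 inside the PyMT-N range and the other alone libraries close to PyMT-M. Without that library Mboat1 kept a rise of 10.1-fold and a fall of 1.96-fold, at 3.2 CPM alone. Genes of the cytoskeleton and small GTPases numbered 9, namely Coro2a, Samsn1, Ralgds, Rab20, Filip1l, Basp1, Arhgap24, Rasa1 and Marcks, with rises of 1.52 to 7.74-fold. Genes of matrix and glycosylation numbered 7, namely Fam20c, Emilin2, St3gal1, Mgat5, Lfng, Antxr2 and Ext1, with falls of up to 6.53-fold. Of the 9 cytoskeletal genes 3 were ordered and 4 met the rule without alone replicate 3. Of the 7 matrix genes these numbers were 4 and 4.

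A pair of genes best known from epithelia were among the 126. Sfn, 14-3-3 sigma, measured 23.2, 20.2 and 20.4 CPM alone, 58.5, 65 and 48.6 CPM with PyMT-N and 7.52, 8.02 and 4.26 CPM with PyMT-M, ordered, and met the rule either way. Krt80, a keratin, measured 5.79, 11.6 and 18.9 CPM alone, 23.5, 22 and 23.2 CPM with PyMT-N and 1.5, 3.63 and 3.99 CPM with PyMT-M, ordered. Without alone replicate 3 it kept a rise of 2.65-fold and a fall of 2.84-fold, and left the rule by its alone level of 8.87 CPM. Their rise with PyMT-N moved with the epithelial markers, whose summed levels in the alone and PyMT-M libraries were at most 117 and 185 CPM against at least 2441 with PyMT-N. Their part in the rise was not tested.

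The remaining 19 genes higher with PyMT-N share no role that could be named with confidence. Fam167a, second by rank, measured 33.9, 28.4 and 3.02 CPM alone, 68.6, 66.9 and 95.8 CPM with PyMT-N and 9.89, 4.01 and 2.13 CPM with PyMT-M, with alone replicate 3 in the PyMT-M range. Rnf19b, Vmp1, Susd6, Glipr2, Slco3a1, Orai1 (the pore of the store-operated calcium channel) and Apobec3 (a deaminase that acts against retroviruses) were among them, and Tmed4, Tanc2, Nradd, March1, AA467197, Slc4a7, Vopp1, Tmem110, Syt8 and Herc3 were the others. Rises over the 19 genes ran from 1.55 to 3.54-fold, 11 were ordered and 11 met the rule without alone replicate 3. Hdhd5 was covered by 65 counts alone, 236 with PyMT-N and 3 with PyMT-M, too few for a fold in the last group.

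**Figure D5:**
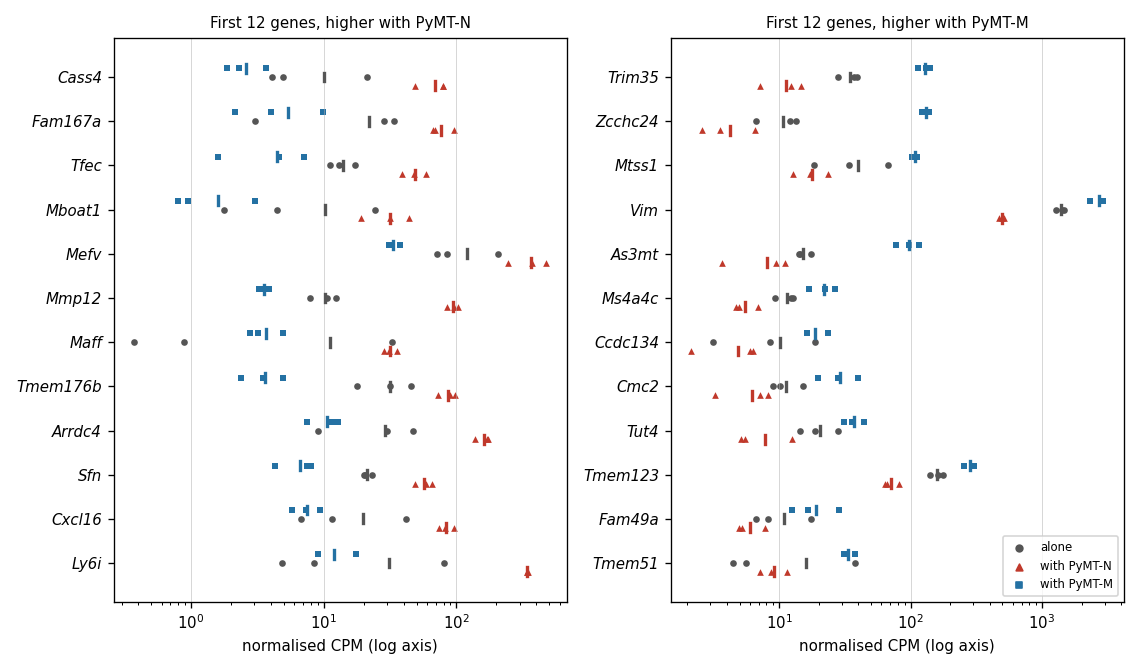
Normalised CPM on a log x axis in each of the 9 libraries (points, 3 per group), with group means (bars), for the first 12 genes by the smaller of their 2 fold changes in each direction. Groups are separate for Mmp12, Tmem176b and Sfn (left) and for Trim35, Zcchc24 and Vim (right), and Maff, Ly6i and Tmem51 show a lone high alone library.

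The 33 genes higher with PyMT-M and lower with PyMT-N were mostly of low level, with a median of 18.5 CPM alone against 38.8 CPM for the 126, and 17 of them under 20 CPM. An alone mean of at least 100 CPM was found in 3. Vim, vimentin, the intermediate filament protein of leukocytes and mesenchymal cells, was the highest of these and measured 1427, 1273 and 1475 CPM alone, 497, 515 and 467 CPM with PyMT-N and 2896, 2920.3 and 2303 CPM with PyMT-M. Every group was separate, with a log2 fold change of -1.50 ± 0.15 (SE) with PyMT-N and 0.96 ± 0.15 with PyMT-M. Vim also marks mesenchymal cells, and 21 other mesenchymal markers summed to at least 1192 CPM with PyMT-M against at most 427 in the other libraries. The part of such cells in the level of Vim was not tested.

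Trim35, a ubiquitin ligase of the tripartite motif family and first by rank, measured 39.2, 37 and 27.9 CPM alone, 14.6, 12.4 and 7.1 CPM with PyMT-N and 113, 130.0 and 140.3 CPM with PyMT-M. Zcchc24, a zinc finger protein, measured 13.4, 6.73 and 12.1 CPM alone, 6.6, 3.58 and 2.58 CPM with PyMT-N and 132, 139 and 122 CPM with PyMT-M. Its rise of 12.2-fold was the largest of the 33, and both genes were ordered and met the rule without alone replicate 3. As3mt, which methylates arsenic, measured 17.4, 14.2 and 14.3 CPM alone, 9.47, 11 and 3.66 CPM with PyMT-N and 117, 78.1 and 97.4 CPM with PyMT-M, a rise of 6.36-fold, and was ordered too. Mtss1, which bends membranes and binds actin, measured 33.9, 18.3 and 67.1 CPM alone, 17.2, 23.4 and 12.7 CPM with PyMT-N and 109.9, 103 and 112 CPM with PyMT-M, and its PyMT-N and alone libraries overlapped.

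Ms4a4c, a four-span membrane protein of myeloid cells with close relatives in the genome, measured 9.36, 12.3 and 12.8 CPM alone, 6.89, 4.68 and 4.95 CPM with PyMT-N and 26.4, 16.8 and 22.4 CPM with PyMT-M. Tut4, which adds uridines to RNA, measured 18.7, 28 and 14.3 CPM alone, 12.6, 5.51 and 5.17 CPM with PyMT-N and 44.1, 31.1 and 35.9 CPM with PyMT-M. Tmem123, a cell surface mucin, measured 176, 141 and 162 CPM alone, 81.8, 65.8 and 63.5 CPM with PyMT-N and 256, 292 and 304 CPM with PyMT-M. These 3 were ordered in every library. Cmc2, a factor of cytochrome oxidase assembly, measured 8.91, 10.1 and 15.1 CPM alone, 7.18, 8.26 and 3.23 CPM with PyMT-N and 27.9, 19.7 and 39.9 CPM with PyMT-M, and was ordered. Without alone replicate 3 its alone level of 9.71 CPM was under the minimum, with a rise of 3.09-fold and a fall of 1.52-fold.

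Ccdc134 measured 3.12, 8.59 and 18.9 CPM alone, 6.03, 6.34 and 2.15 CPM with PyMT-N and 16.3, 16.4 and 23.4 CPM with PyMT-M, and Fam49a, which restrains Rac signalling, measured 6.68, 17.6 and 8.3 CPM alone, 7.75, 5.23 and 4.95 CPM with PyMT-N and 28.6, 12.6 and 16.5 CPM with PyMT-M. Tmem51 measured 4.46, 5.6 and 37.7 CPM alone, 8.61, 11.6 and 7.1 CPM with PyMT-N and 31.2, 31.3 and 38.1 CPM with PyMT-M. All 3 overlapped between groups. In Tmem51 the third alone library was the source of the alone level, and without it the log2 fold change with PyMT-N was 0.82, a rise. Dusp2, a phosphatase that acts on MAP kinases in the nucleus, measured 9.36, 19.4 and 20.4 CPM alone, 8.32, 4.41 and 17 CPM with PyMT-N and 35.7, 28.6 and 56.4 CPM with PyMT-M. It moved opposite to Dusp5, although the third PyMT-N library lay within the alone range.

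Metabolic genes made up 8 of the 33, among them the mitochondrial genes Idh3g, Atp5g2, Ak3 and Bcat2, with Galm and Gpd1l besides As3mt and Cmc2. Their rises ran from 1.61 to 6.36-fold, 3 were ordered, and 2 met the rule without alone replicate 3. The transcription and chromatin genes Bmi1, Tcf3 and Zfp260, the heparan sulphate proteoglycan Gpc1, and Olfm1, Gga2, Plaa, Dnajb4, Apmap, Mms22l, Ndrg3, Cwf19l2, Tpcn1 and Ubl4a completed the list.

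The thresholds cut through a continuum. Just inside the fold threshold among genes higher with PyMT-N stood Aff1, Ptgs1 and Cflar at 1.501, 1.504 and 1.505-fold in their smaller arm, and just outside stood Ccr1, Ets2 and Treml2 at 1.49-fold. Among genes higher with PyMT-M, Ubl4a, Tcf3 and Bcat2 at 1.502, 1.506 and 1.511-fold were just inside and Kif15, Tbc1d4 and Asb6 at 1.47-fold just outside. By level, Cass4, Mboat1 and Vopp1 averaged 10.04, 10.13 and 10.28 CPM alone, while Rcan3, Cadm1 and Cdh1 averaged 9.94, 9.86 and 9.71 CPM and were left out although all 3 were opposite. In the other direction Ccdc134, Ak3 and Zcchc24 at 10.2, 10.5 and 10.7 CPM were kept, and Ppwd1, Zfp275 and P2rx7 at 9.94, 9.78 and 9.42 CPM were not.

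Other genes of the same pathways were tested across all 12012 genes that passed the filter, by edgeR's quasi-likelihood F test with Benjamini-Hochberg adjustment, a call being an adjusted p under 0.05. Against alone, 3533 genes were higher with PyMT-N (29.4%) and 2831 lower (23.6%), and 3382 were higher with PyMT-M (28.2%) and 3353 lower (27.9%). Between co-cultures, 2297 were higher with PyMT-N (19.1%) and 1865 with PyMT-M (15.5%), 34.6% in all. Scaling to library totals gave 4315 and 2112, 4571 and 1913, and 1834 and 2703 in the same order, and pan-leukocyte scaling gave 8166 and 594, 8413 and 178, and 1671 and 2652. These scalings moved the median of all genes by 0.29, 0.50 and -0.21 and by 1.45, 1.70 and -0.25 on the log2 scale.

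NF-kB subunits and targets numbered 27 listed genes, of which 8 are among the 126 and 18 others could be tested. The rule was met in this sense by 1.98% of the 6926 genes. As the lists were chosen with earlier results of these data known, nothing is read from the number of members in this or any list below. Between co-cultures 15 of the 18 were higher with PyMT-N and 0 were lower, with a median log2 difference of 1.27 against -0.015 over all genes, and 13 were higher under pan-leukocyte scaling. Against alone, 12 were higher and 3 lower with PyMT-N, and 0 were higher and 7 lower with PyMT-M, where the remaining 11 did not pass the test. Under pan-leukocyte scaling the second comparison turned to 15 higher and 0 lower. Ier3, a survival gene of the immediate response, was at 114 ± 10.6 CPM alone, 767 ± 113 CPM with PyMT-N and 124 ± 6.23 CPM with PyMT-M (SD, n = 3). Tnfaip3, which encodes A20, was at 73.7 ± 6.05, 316 ± 45.3 and 58.1 ± 16.7 CPM (SD, n = 3) in the same order, with a log2 difference between co-cultures of 2.44 ± 0.22 (SE, adjusted p = 6.81e-07 with edgeR). Il1a, interleukin-1 alpha, was at 0.623 ± 1.08, 366 ± 72.4 and 0.127 ± 0.220 CPM (SD, n = 3).

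A list of the GM-CSF receptor and the STAT5 response, signalling parts such as Jak2 and Stat5a included, held the members Osm and Il4ra. Of its other genes 16 were tested. With PyMT-N 9 were higher and 3 lower than with PyMT-M. Compared with alone, 8 were higher and 5 lower with PyMT-N, and 4 were higher and 6 lower with PyMT-M. Cish, a feedback inhibitor of STAT5, was at 1.40 ± 1.39 CPM alone, 114 ± 9.56 with PyMT-N and 1.82 ± 1.27 with PyMT-M (SD, n = 3). The kinase Pim1 was at 76.6 ± 18.8, 367 ± 35.7 and 70.8 ± 11.3 CPM (SD, n = 3), a log2 difference between co-cultures of 2.37 ± 0.21 (SE, adjusted p = 4.28e-07 with edgeR). Of 15 further genes of the TGF-beta response, 10 were higher with PyMT-N than with PyMT-M and 1 lower. Bhlhe40 and Smad3 were among the 10, with log2 differences of 2.47 ± 0.18 and 2.04 ± 0.25 (SE, adjusted p = 6.45e-08 and 1.37e-05 with edgeR), and both had a mean above alone with PyMT-M as well.

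Of 36 interferon-stimulated genes 0 met the rule. As only 1.98% of the 6926 genes met it in the first sense and 0.491% in the second, nothing is read from that count. All 36 were higher with PyMT-N than alone and 34 were higher with PyMT-M than alone, with median log2 fold changes of 4.53 and 2.76. Between co-cultures 33 were higher with PyMT-N. Ifit1, which binds foreign RNA, was at 10.8 ± 5.03 CPM alone, 804 ± 131 with PyMT-N and 219 ± 33.8 with PyMT-M (SD, n = 3). Whether the lists differed from each other was not tested.

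In the list of chemokines and their receptors, 3 members and 22 other tested genes, 14 were higher with PyMT-N than with PyMT-M and 4 lower. Immediate early and AP-1 genes gave 14 higher and 1 lower of 23, among them the ERK phosphatase Dusp6 with a log2 difference of 2.93 ± 0.25 (SE, adjusted p = 3.35e-07 with edgeR). Integrins and adhesion genes gave 12 higher and 2 lower of 20. Lipid handling genes gave 6 higher and 7 lower of 21, with a median log2 difference of -0.077, and granule proteins 7 higher and 7 lower of 22. Lysosomal genes gave 12 higher and 2 lower of 22, which fell to 7 higher under pan-leukocyte scaling. Lectin and Fc receptors gave 11 higher and 4 lower of 20, and there pan-leukocyte scaling gave 6 higher and 5 lower. Against alone under TMM, 11 lysosomal genes were lower, 2 higher and 9 not called with PyMT-N, and 18, 1 and 3 with PyMT-M. For the receptor genes these counts were 11, 1 and 8 with PyMT-N and 17, 2 and 1 with PyMT-M. Under pan-leukocyte scaling 13 and 13 lysosomal genes and 13 and 6 receptor genes were higher instead.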

How the data were processed

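Bulk RNA sequencing covered 9 libraries, 3 per group. Per the labels' protocols, 150 pg of RNA from RNeasy Micro columns went into each QIAseq FX Single Cell RNA library. What the authors deposited was a table of unnormalised read counts by Ensembl gene; the submitters' processing notes name STAR and the builds GRCm38 and mm10. Tool versions, the counting step, its annotation and its strand handling are not stated in the labels used. Overlapping and antisense genes are therefore uncertain. Symbols, gene types and lengths came from GENCODE M21 for GRCm38.

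Library totals were 1641049 to 4524563 counts, and a floor of 3 counts stood for 0.573 to 2.26 normalised CPM. The filterByExpr function of edgeR 4.0.16, at a minimum count of 10 and a minimum total of 15, kept 12012 genes, all 159 members among them. TMM factors and a quasi-likelihood F test (robust, legacy estimation off, all 9 libraries, 1 mean per group, R 4.3.3) followed; SE is the log2 fold change over the root of F. The code was tested on simulated data.

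The members, gene lists and pan-leukocyte scaling were chosen with earlier results of these data known. The first 12 genes of each direction by the smaller fold, members of the lists and genes at the thresholds were named by rule; other members were named by role, assigned after their values were seen; 1 member is counted but not reported here. Of each list, up to 3 other genes of smallest p between co-cultures were eligible, and only those in the majority direction of the list. The letters GGGANTTTC and the count of genes ordered in every library were added after seeing the data. Alternatives were other size factors, filters, thresholds, DESeq2 1.42.0, group medians, a replicate block and each library left out.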

Additional observations from a re-analysis of the deposited data

How the results depend on the processing

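The number of genes meeting the rule depended on scaling and thresholds. For genes higher with PyMT-N it was 126, and 71 with library totals (44 of them among the 126), 19 with pan-leukocyte scaling, 41 at a fold threshold of 2 and 280 at the looser fold threshold tried. For genes higher with PyMT-M it was 33, and 43 with library totals (14 of them among the 33), 55 with pan-leukocyte scaling, 3 at a fold threshold of 2, 107 at the looser one, 59 with at least 5 CPM alone and 16 with at least 20 CPM alone. Of the 19 genes 4 were among the 126, and of the 55 genes 0 were among the 33. Leaving out each library in turn gave 117 to 140 and 27 to 33 genes, of which the fewest shared with the members, 76 and 16, came without alone replicate 3. Called genes over all comparisons ran from 5604 to 7182 (PyMT-N against alone), 5875 to 7505 (PyMT-M against alone) and 3235 to 5630 (between co-cultures) with a library left out, and from 5004 to 8760, 5324 to 8591 and 3052 to 4811 under the other settings. Asking for every library in order with no fold threshold gave 132 and 35 genes, 69 and 14 of them members.

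By ratios of group means, pan-leukocyte scaling turned the fall of 105 of the 126 and 30 of the 33 members into a rise. It sets the level of leukocyte genes, which were lower in both co-cultures under TMM, to no change. The 45 edgeR log2 fold changes that turned positive, among members picked by rank, list or threshold, follow. Being fitted, they can differ in sign from the ratio of means, which for Cass4 with PyMT-M stayed at -0.28. With PyMT-N the log2 fold changes became 0.11 for Zcchc24, 0.40 for Mtss1, 0.47 for As3mt, 0.39 for Ms4a4c, 0.49 for Ccdc134, 0.60 for Cmc2, 0.26 for Tmem123, 0.49 for Fam49a, 0.94 for Tmem51, 0.82 for Dusp2, 0.66 for Ak3, 0.92 for Bcat2, 0.87 for Tcf3 and 0.79 for Ubl4a. With PyMT-M they became 0.044 for Cass4, 0.15 for Tfec, 0.18 for Mmp12, 0.62 for Maff, 0.19 for Arrdc4, 0.046 for Sfn, 0.48 for Cxcl16, 0.66 for Ly6i, 0.38 for Ankrd37, 0.53 for Skil, 0.60 for Il4ra, 0.50 for Nfkbie, 0.65 for Ptgs2, 0.68 for Clec5a, 0.73 for Osm, 0.44 for Ccl3, 0.93 for Icam1, 0.87 for Nfkbia, 0.94 for Bcl3, 0.90 for Ccl4 and 0.78 for Pfkfb3. They became 0.96 for Tgif1, 0.53 for Trem1, 0.61 for Tnip1, 1.01 for Dusp5, 0.38 for Cd53, 0.85 for Bnip3, 0.92 for Ctsb, 1.16 for Cd14, 1.12 for Cflar and 0.96 for Aff1. Over the libraries left out in turn, Tmem51 with PyMT-N ran from -0.999 to 0.82, Maff with PyMT-M from -1.85 to 2.55 and Ly6i with PyMT-M from -1.69 to 0.90, the positive value of each being without alone replicate 3, which held most of their alone level.

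Replicate numbers are shared between groups, but same-numbered libraries did not deviate together (correlations of -0.077 to 0.028, 0 of 9 pairs over 0.1). With the replicate block 6103, 6517 and 3967 genes were called in place of 6364, 6735 and 4162, and all 165 fold changes of named members stayed within their spread. A library of 1641049 counts limits low genes: 3 counts there stood for 2.26 CPM.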

Other observations

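Some lists moved together in both co-cultures. They held no member, from which nothing is read, as few genes of any kind met the rule. Of 22 granule protein genes, the stores that neutrophils make in the marrow, 17 were lower than alone with PyMT-N and 17 with PyMT-M (edgeR, adjusted p under 0.05), with median log2 fold changes of -2.43 and -1.72; under pan-leukocyte scaling 12 and 4 were lower. Of 25 cell cycle genes, 19 were higher than alone with PyMT-N and 21 with PyMT-M, and 9 were lower with PyMT-N than with PyMT-M. Top2a, a topoisomerase of dividing cells, was at 39.6 ± 5.83 CPM alone, 103 ± 14.1 with PyMT-N and 238 ± 38.6 with PyMT-M (SD, n = 3). Epithelial and mesenchymal marker RNA moved with the co-cultures, and its part in them was not tested.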
